A study of Homo sapiens with 88 samples.

Results

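Transcript levels of the ID genes and of 4 further genes of bone morphogenetic protein (BMP) signalling were followed in 9 established human small cell lung cancer (SCLC) lines, on 88 Affymetrix HG-U133 Plus 2.0 arrays. The genes were ID1, ID2, ID3, ID4, SMAD6, BAMBI, BMP4 and BMP7, and every probe set annotated to 1 of them alone was taken. This gave 19 probe sets for 8 genes, of 41091 single-gene probe sets for 19775 genes, and 1 probe set shared by ID2 and ID2B was left out. Cells received a treatment that the sample titles call 552A (45 arrays) or the vehicle DMSO (43 arrays), in RPMI with serum. The treatment protocol names 1 µM GSK2879552, which inhibits LSD1 (a histone demethylase), but the labels do not equate 552A with it, and the name 552A is kept here. Day 4 was sampled in every line, and days 2 and 7 also in COLO668, SHP-77, NCI-H146, NCI-H446, NCI-H510 and NCI-H526, but not in H69, H1417 and H2171. The 42 groups of line, treatment and day had 2 arrays each, except for 2 groups with 3 arrays and 1 with 4. The study set out to see how LSD1 inhibition changes expression in lines that differ in growth response, but the labels do not say which lines were sensitive. Each line is 1 tumour-derived culture of mixed passages, and whether arrays of one group stem from separate cultures is not labelled, so the p-values measure the spread between arrays, which may be technical.

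BMP ligands such as BMP4 and BMP7 bind paired serine/threonine kinase receptors, which phosphorylate SMAD1, SMAD5 and SMAD9, and these enter the nucleus with SMAD4. The ID genes are among the best known direct targets of this pathway. ID proteins have a helix-loop-helix but no DNA-binding region, so they pair with E proteins and keep them and their bHLH partners, including neural and neuroendocrine factors, off DNA. SMAD6, an inhibitory SMAD, and BAMBI, a receptor-like protein without a kinase, are themselves induced by BMP signalling and dampen it.

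The promoter windows of the members that changed most are shown because they are where SMAD complexes and bHLH dimers can meet DNA. Each covers the 250 bases before the annotated start, from RefSeq on GRCh38.p14, and such windows were at hand for 7 of the 8 members. Capitals mark matches on either strand to GTCTAG (the SMAD-binding element), GGCGCC (a GC-rich element of BMP targets) or CANNTG (the E-box bound by bHLH dimers).
ID1, chr20:31605039-31605288, plus strand: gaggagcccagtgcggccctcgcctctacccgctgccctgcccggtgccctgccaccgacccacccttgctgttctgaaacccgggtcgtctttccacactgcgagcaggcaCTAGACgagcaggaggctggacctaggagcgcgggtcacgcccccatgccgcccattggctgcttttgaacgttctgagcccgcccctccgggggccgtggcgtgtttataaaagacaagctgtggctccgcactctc
ID4, chr6:19837120-19837369, plus strand: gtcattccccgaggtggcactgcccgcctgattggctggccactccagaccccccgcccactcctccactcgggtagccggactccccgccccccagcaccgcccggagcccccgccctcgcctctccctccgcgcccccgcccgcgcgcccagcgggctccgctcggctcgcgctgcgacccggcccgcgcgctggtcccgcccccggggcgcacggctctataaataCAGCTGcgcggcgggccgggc
SMAD6, chr15:66701986-66702235, plus strand: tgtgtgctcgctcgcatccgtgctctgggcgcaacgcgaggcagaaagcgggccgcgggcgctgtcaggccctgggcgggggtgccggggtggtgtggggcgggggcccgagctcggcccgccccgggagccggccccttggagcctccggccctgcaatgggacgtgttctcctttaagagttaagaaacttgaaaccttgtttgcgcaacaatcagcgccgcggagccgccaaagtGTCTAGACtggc
The ID1 window held 1 GTCTAG match, read on the other strand as CTAGAC, beginning 138 bases before the start. The SMAD6 window held GTCTAG from 12 to 7 bases before the start, and it overlapped a match on the other strand that ran from 10 to 5. The ID4 window held 1 E-box, CAGCTG, from 21 to 16 bases before the start, and the ID2 window held 1 from 205 to 200. The ID3 window held none of the 3 motifs, the BAMBI window 3 GGCGCC matches, and the 3 BMP4 windows 1 GGCGCC match and 1 E-box. Of 35116 promoter windows of the same length, 4.9% held GTCTAG, 16.4% GGCGCC and 61.8% CANNTG. A match is a description of the letters and does not show that a factor binds there.

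The genes lie at chr20:31605289-31606510 (ID1), chr2:8682056-8684461 (ID2), chr1:23557926-23559501 (ID3), chr6:19837370-19842197 (ID4), chr15:66702236-66782849 (SMAD6), chr10:28677521-28682932 (BAMBI), chr14:53949736-53956891 (BMP4) and chr20:57168753-57266641 (BMP7) in the same build. Levels are the deposited log2 signals, and a change is the 552A level less the DMSO level, in log2 units, with the standard error (SE) of a limma fit. The change of a line is the mean over its days, and a probe set is called where its Benjamini-Hochberg adjusted p lay below 0.05. Of the 19 probe sets, 17 passed the filter on dim signals and were tested. The other 2 belonged to SMAD6, with group means from 6.08 to 6.97 for 209887_at and from 6.16 to 6.77 for 213565_s_at. For each gene 1 lead probe set, the brightest of its usual kind, is used unless another is named.

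The array medians lay between 7.36 and 7.46. The 3' over 5' log2 signal of ACTB, which is high where RNA is degraded, exceeded 0.8 in 5 arrays of day 7: SHP-77 DMSO replicate 1, SHP-77 552A replicates 1 and 2, COLO668 DMSO replicate 1 and COLO668 552A replicate 2. A further array, NCI-H446 DMSO day 4 replicate 2, had the lowest interquartile range, 2.56. The neuroendocrine markers CHGA (DMSO line means 10.8 to 13.6), INSM1 (12.4 to 13.8), NCAM1 (10.7 to 12.8), SYP (7.66 to 8.09) and DLL3 (7.79 to 10.9) were above the dim limit of 6.09 in 9 of 9 lines. The epithelial markers EPCAM, KRT8 and KRT18 were above it in 9 of 9 lines, and POU2F3 of tuft cells was below it in 8. Markers of other cell types lay on both sides of that limit. PTPRC of leukocytes and LUM of fibroblasts were below the limit in 9 of 9 lines and CDH5 of endothelium in 8 of 9 (highest mean 10.9). CD3E of T cells (7.49 to 7.93), PECAM1 of endothelium (8.06 to 8.40) and the collagen genes COL1A1 (6.75 to 7.04) and COL1A2 (6.95 to 12.0) were above it in 9 of 9. The limit is the median lower quartile of the arrays, so a signal above it does not show that a gene is expressed. SYP, CD3E, PECAM1 and COL1A1 differed little between the lines. CHGA fell with 552A in 5 lines, SYP in 3 and DLL3 in 2, while INSM1 rose in 2 and NCAM1 rose in 4 and fell in 2. In bulk cultures fewer cells of a type and less RNA per cell cannot be told apart, and the part of these markers in the changes below was not tested.

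ID genes rose in a subset of the lines, most in NCI-H510, COLO668 and NCI-H526. Over the lead probe sets, 16 of 72 pairs of gene and line rose and 2 fell (22.2% and 2.78%). The same shares over the lead probe sets of all genes are not given here. Over the 17 probe sets, 31 of 153 pairs rose and 2 fell (20.3% and 1.31%), against 4.86% and 3.41% of all pairs of probe set and line tested. In NCI-H526, 10 of 17 member probe sets rose and 0 fell, against 9.12% rising and 8.43% falling among all 29598 probe sets tested. In NCI-H510, 7 rose and 1 fell, against 7.58% and 5.1%, and in COLO668, 7 rose and 0 fell, against 10.4% and 6.79%. These 3 lines held 24 of the 31 rises. ID4 has 5 of the 17 probe sets, so rises of this 1 gene enter the probe set counts more than once. In NCI-H446, 4 rose and 0 fell (all probe sets 3.5% and 0.858%), and in NCI-H146, 2 rose and 0 fell (3.17% and 1.76%). In H1417, 1 rose and 0 fell (4.34% and 2.71%), and in H69, 0 rose and 1 fell (1.85% and 1.22%). No member probe set was called in SHP-77 (all probe sets 2.68% rising and 3.44% falling) or H2171 (1.04% and 0.382%). Lead changes lay between -0.26 (ID4) and 0.16 (BMP7) in SHP-77 and between -0.30 (ID3) and 0.28 (ID1) in H2171.

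ID1, the family member most often used as a readout of BMP signalling, rose most in NCI-H510. At day 2 its signals there were 10.44 and 10.37 with 552A, against 9.18 and 9.26 with DMSO. At day 4 they were 10.70 and 10.84 with 552A, against 9.43 and 9.44 with DMSO, and at day 7 they were 10.97 and 10.89 with 552A, against 9.85 and 9.58 with DMSO. Every 552A array lay above every DMSO array, and the change of 1.25 ± 0.10 (2.37-fold, adjusted p = 1.39e-14) lay between 1.18 and 1.34 on the single days. In COLO668, the line with the lowest ID1 signal, the 552A arrays read 8.24 and 8.08 at day 2, against 7.54 and 7.65 with DMSO. They read 8.58 and 8.66 at day 4, against 7.67 and 7.93 with DMSO, and 9.61 and 9.52 at day 7, against 7.74 and 8.27 with DMSO. The arms did not overlap within a day, and the mean change was 0.98 ± 0.10 (1.97-fold, adjusted p = 4.32e-11). NCI-H526 showed a smaller rise of 0.36 ± 0.10 (1.28-fold, adjusted p = 0.00568), with 552A signals from 12.18 to 12.84 (median 12.42) and DMSO signals from 11.89 to 12.46 (median 12.20), so that the arms overlapped. In NCI-H146 the change was 0.34 ± 0.10 (1.26-fold, adjusted p = 0.0368), with 552A signals from 12.32 to 12.78 (median 12.50) and DMSO signals from 11.92 to 12.45 (median 12.24). That call ended when 1 of 8 of its 12 arrays was left out, namely 552A day 2 replicate 2, day 4 replicate 1 and day 7 replicate 1, or DMSO day 2 replicates 1 and 2, day 4 replicates 1 and 2 and day 7 replicate 1, with changes of 0.30 to 0.35 and adjusted p from 0.0595 to 0.127. In H69 both 552A arrays (13.18 and 13.22) lay above both DMSO arrays (12.87 and 12.92), but the change of 0.31 ± 0.18 was not called (adjusted p = 0.64). ID1 was not called in NCI-H446 (-0.07 ± 0.10), H2171 (0.28 ± 0.18), SHP-77 (0.02 ± 0.10) or H1417 (0.02 ± 0.18), and in the last 2 lines its DMSO level was the highest of all.

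ID4, which is prominent in neural progenitors, rose in 4 lines on its lead probe set and on 2 or more of its 5 probe sets in each of them. In NCI-H510 its signals were 11.83 and 11.48 with 552A at day 2, against 10.46 and 10.39 with DMSO. At day 4 they were 11.50 and 11.44 with 552A, against 10.27 and 10.16 with DMSO, and at day 7 they were 11.72 and 11.17 with 552A, against 10.59 and 9.91 with DMSO. The arms did not overlap over the whole time course, and the change was 1.23 ± 0.11 (2.34-fold, adjusted p = 3.71e-13). In COLO668 the signals were 9.50 and 9.60 with 552A at day 2, against 8.72 and 9.06 with DMSO. They were 10.37 and 10.47 with 552A at day 4, against 9.35 and 9.48 with DMSO, and 11.25 and 10.83 with 552A at day 7, against 8.99 and 9.68 with DMSO. The gap widened with time, and the mean change was 1.12 ± 0.11 (2.18-fold, adjusted p = 7.64e-12). In NCI-H526 the 552A signals ran from 11.42 to 12.06 (median 11.85) and the DMSO signals from 10.64 to 11.39 (median 11.03), without overlap, for a change of 0.78 ± 0.11 (1.72-fold, adjusted p = 6.19e-08). In NCI-H446 the 552A signals ran from 9.49 to 10.55 (median 9.75) and the DMSO signals from 8.64 to 10.09 (median 9.32), and the change was 0.50 ± 0.11 (1.42-fold, adjusted p = 0.00105), but 0.0912 in a fit of that line's own arrays alone. ID4 was not called in SHP-77 (-0.26 ± 0.11, adjusted p = 0.129), NCI-H146 (-0.14 ± 0.11), H69 (0.11 ± 0.19), H2171 (0.23 ± 0.19) or H1417 (-0.13 ± 0.19).

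The other 4 ID4 probe sets rose in some of the same lines. Probe set 209292_at changed by 1.55 ± 0.15 in NCI-H510, where DMSO signals were dim on 2 of 3 days so that the change may be a lower limit, by 1.31 ± 0.15 in COLO668, by 0.90 ± 0.15 in NCI-H526 and by 0.59 ± 0.15 in NCI-H446. Probe set 226933_s_at changed by 1.03 ± 0.12, 0.62 ± 0.12, 0.72 ± 0.12 and 0.50 ± 0.12 in the same 4 lines. Probe set 209293_x_at changed by 0.80 ± 0.10 in NCI-H510, 0.36 ± 0.10 in COLO668 and 0.57 ± 0.09 in NCI-H526, and it was not called in NCI-H446 (0.16 ± 0.09). All of these but the last were called, and the 2 calls in NCI-H446 did not hold in a fit of that line's own arrays alone (adjusted p = 0.0931 for 209292_at and 0.159 for 226933_s_at). Each also ended without 1 array. Without 552A day 4 replicate 1 the change of 209292_at was 0.51 (adjusted p = 0.0563), and without DMSO day 2 replicate 2 that of 226933_s_at was 0.40 (adjusted p = 0.0739). Probe set 229386_at was called only in NCI-H526 (0.27 ± 0.10, adjusted p = 0.0493). That call ended under 7 left-out arrays, which were 552A day 2 replicates 2 and 3, day 4 replicate 1 and day 7 replicate 2, and DMSO day 2 replicate 1, day 4 replicate 1 and day 7 replicate 2 (changes 0.19 to 0.28). It also ended in 6 of 8 processing alternatives, with changes of 0.16 to 0.27 over the 8 and adjusted p up to 0.916.

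ID3, which is co-induced with ID1 in many cell types, rose in NCI-H526, NCI-H146 and COLO668. In NCI-H146 its signals were 10.20 and 10.16 with 552A at day 2, against 9.69 and 9.65 with DMSO. They were 10.56 and 10.30 with 552A at day 4, against 9.84 and 9.73 with DMSO, and 10.97 and 10.72 with 552A at day 7, against 10.09 and 10.07 with DMSO. The arms did not overlap, for a change of 0.64 ± 0.11 (1.56-fold, adjusted p = 4.18e-05), in a line where ID4 was not called. In NCI-H526 the 552A signals ran from 11.59 to 12.14 (median 11.81) and the DMSO signals from 10.93 to 11.54 (median 11.25), again without overlap, and the change was 0.62 ± 0.11 (1.54-fold, adjusted p = 1.2e-05). In COLO668 the signals ran from 8.45 to 9.04 (median 8.82) with 552A and from 8.07 to 8.74 (median 8.33) with DMSO, and the change of 0.37 ± 0.11 (1.29-fold, adjusted p = 0.0142) overlapped between arms. The COLO668 call ended when 552A day 2 replicate 1, 552A day 4 replicate 2, DMSO day 4 replicate 1 or DMSO day 7 replicate 1 was left out, the last giving 0.26 (adjusted p = 0.102), and when the 6 arrays described above were left out (0.25, adjusted p = 0.0569). ID3 was not called in NCI-H510 (0.27 ± 0.11, adjusted p = 0.113), where ID1 and ID4 rose most, nor in NCI-H446 (0.22 ± 0.11), SHP-77 (-0.01 ± 0.11), H69 (0.17 ± 0.19), H2171 (-0.30 ± 0.19) or H1417 (0.41 ± 0.19, adjusted p = 0.26).

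ID2, the most widely expressed family member, changed little. In NCI-H526 its signals ran from 12.67 to 13.10 (median 12.88) with 552A and from 12.34 to 12.79 (median 12.67) with DMSO, for a change of 0.27 ± 0.08 (1.21-fold, adjusted p = 0.0124). In NCI-H510 they ran from 12.36 to 12.85 (median 12.51) with 552A and from 12.04 to 12.42 (median 12.30) with DMSO, for a change of 0.28 ± 0.08 (1.21-fold, adjusted p = 0.0167). The arms overlapped in both lines, and neither call held under every left-out array. In NCI-H526 it ended without 552A day 4 replicate 1, 552A day 7 replicate 2, DMSO day 4 replicate 2 or DMSO day 7 replicate 2 (0.21 to 0.23), and in NCI-H510 without 552A day 2 replicate 1, 552A day 7 replicate 1 or DMSO day 7 replicate 2 (0.22 to 0.24). The second probe set, 201566_x_at, was called in NCI-H510 alone (0.39 ± 0.11, adjusted p = 0.0137), and not without 552A day 7 replicate 1 or DMSO day 7 replicate 2. The changes of the lead probe set in the other lines lay between -0.23 ± 0.14 in H1417 and 0.15 ± 0.08 in NCI-H146.

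**Figure D1:**
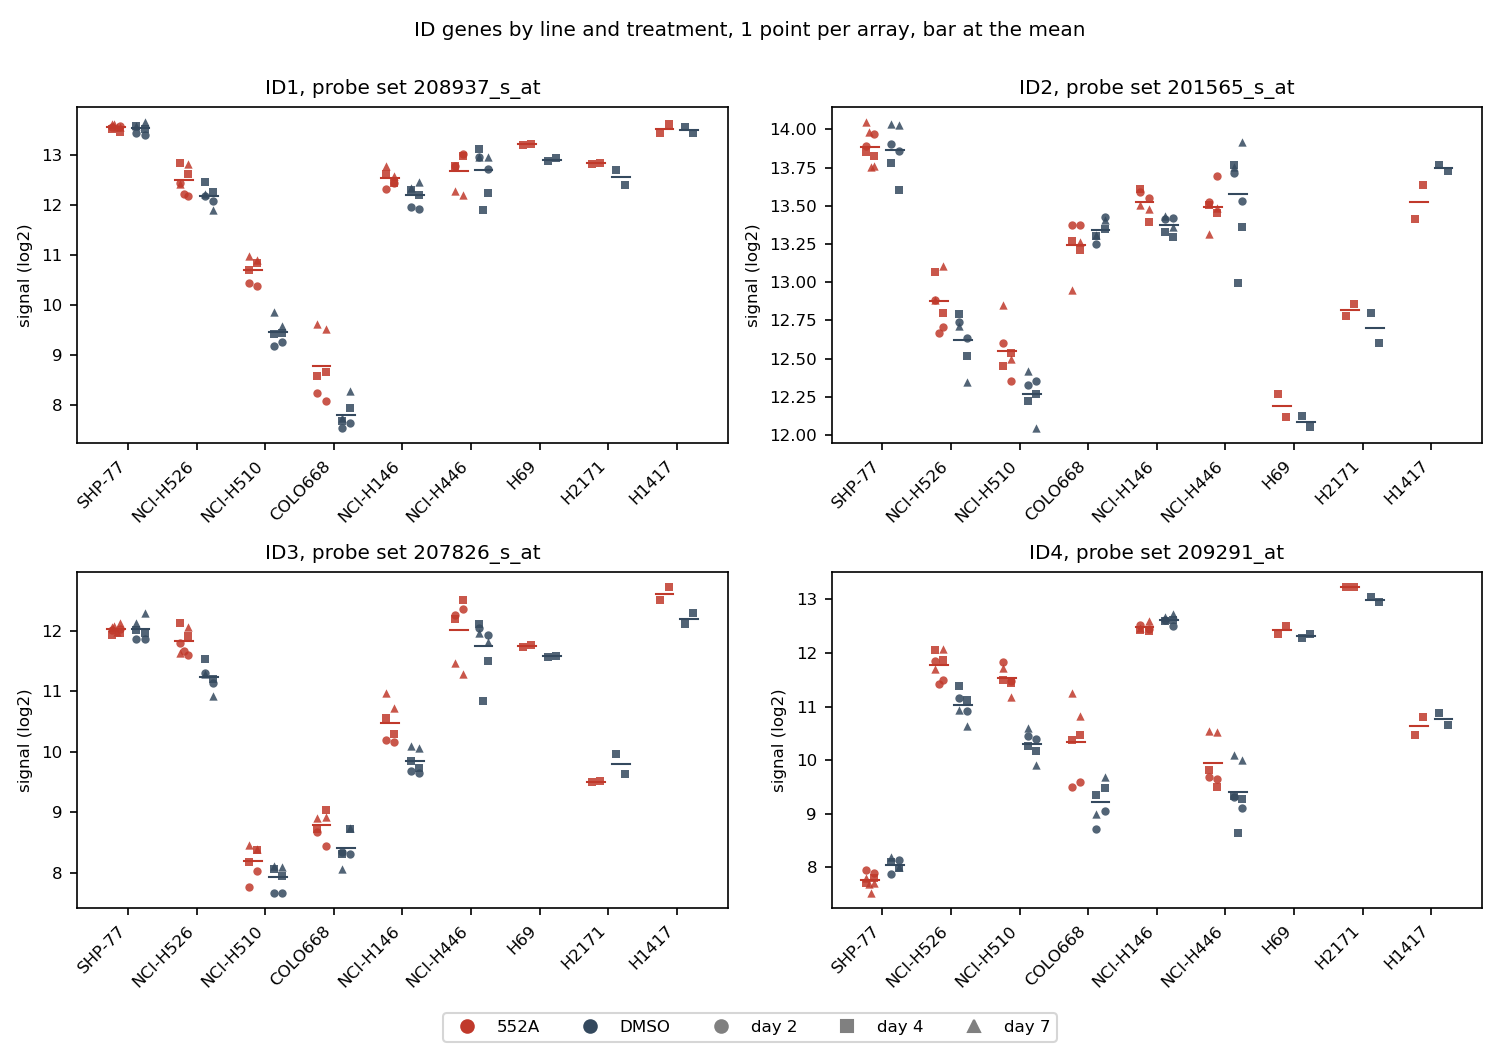
Signals (log2, vertical axis) of ID1, ID2, ID3 and ID4 on their lead probe sets in the 9 lines, with 552A in red left of DMSO in blue, 1 point per array, the shape giving the day and the bar the mean. In NCI-H510 the 552A arrays of ID1 lie between 10.37 and 10.97, all above the DMSO arrays between 9.18 and 9.85, whereas the arms of SHP-77 cover about the same range.

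Vehicle levels of the ID genes set the lines far apart, and their order differed by gene. ID1 averaged 13.52 ± 0.10 (SD, n = 6) in SHP-77 and 13.49 ± 0.10 (n = 2) in H1417, which overlapped. It averaged 12.90 ± 0.04 (n = 2) in H69, 12.69 ± 0.45 (n = 7) in NCI-H446, 12.54 ± 0.22 (n = 2) in H2171, 12.19 ± 0.21 (n = 6) in NCI-H146 and 12.18 ± 0.19 (n = 6) in NCI-H526, each overlapping the next. NCI-H510, at 9.46 ± 0.24 (n = 6), and COLO668, at 7.80 ± 0.27 (n = 6), lay below all others without overlap, and they were the 2 lines with the largest ID1 rises. Because the change is taken from the same DMSO arrays, that link is described without a test. ID3 was likewise lowest in NCI-H510 (7.93 ± 0.21) and COLO668 (8.42 ± 0.27, overlapping) and highest in H1417 (12.20 ± 0.12) and SHP-77 (12.02 ± 0.17, overlapping). It read 11.74 ± 0.45 in NCI-H446 and 11.58 ± 0.01 in H69, which overlapped, 11.23 ± 0.20 in NCI-H526, and 9.85 ± 0.19 in NCI-H146 and 9.80 ± 0.23 in H2171, which overlapped. ID4 followed another order, highest in H2171 (arrays at 12.95 and 13.04), then NCI-H146 (12.62 ± 0.07) and H69 (12.32 ± 0.04), none of which overlapped. Below them came NCI-H526 (11.03 ± 0.26) and H1417 (10.77 ± 0.17), which overlapped, then NCI-H510 (10.30 ± 0.24), NCI-H446 (9.40 ± 0.50) and COLO668 (9.21 ± 0.35), each overlapping the next, and SHP-77 lowest (8.05 ± 0.11). ID2 spanned the least, from 13.87 ± 0.16 in SHP-77 to 12.09 ± 0.05 in H69. Over 9 lines the DMSO means of ID1 and ID3 had r = 0.87, and those of ID1 and ID4 had r = 0.21.

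SMAD6, the inhibitory SMAD, was tested on 2 probe sets that differed in what they showed. On 207069_s_at it rose in NCI-H526, where signals were 8.43, 8.18 and 7.58 with 552A at day 2, against 7.57 and 7.23 with DMSO. They were 8.71 and 8.62 with 552A at day 4, against 8.28 and 7.49 with DMSO, and 8.38 and 9.18 with 552A at day 7, against 7.83 and 7.18 with DMSO. Every 552A array lay above every DMSO array of its day, although the nearest arrays at day 2 almost met (7.58 with 552A and 7.57 with DMSO), and the mean change was 0.90 ± 0.13 (1.87-fold, adjusted p = 1.32e-07). In H1417 the 552A arrays read 7.81 and 8.0, against 6.73 and 6.98 with DMSO, for a change of 1.05 ± 0.23 (2.07-fold, adjusted p = 0.000987). NCI-H446 had the highest vehicle level, 9.86 ± 0.41 (SD, n = 7), and its change of 0.41 ± 0.13 just missed the threshold (adjusted p = 0.0517). H69 followed at 9.0 ± 0.03, NCI-H526 at 7.60 ± 0.41 and H2171 at 7.17 ± 0.05, and the other 5 lines lay between 6.22 and 6.85. The lead probe set 209886_s_at was called in no line over its days, with 0.24 ± 0.10 in NCI-H526 (adjusted p = 0.0922). The rise in that line and in H1417 was thus seen by 1 of the 2 tested probe sets. On single days the lead was called only in NCI-H446 at day 4 (0.60, adjusted p = 0.0119), where the arms overlapped. That call ended under 4 left-out arrays.

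BAMBI, the pseudoreceptor, moved in opposite directions in NCI-H526 and NCI-H510. In NCI-H510 the 552A arrays read 7.80 and 7.87 at day 2, against 8.33 and 8.30 with DMSO. They read 7.83 and 7.88 at day 4, against 8.47 and 8.39 with DMSO, and 8.23 and 7.82 at day 7, against 8.59 and 8.45 with DMSO. All 552A arrays lay below all DMSO arrays, and BAMBI fell by 0.51 ± 0.10 (1.43-fold lower, adjusted p = 0.000122) in the line where ID1 and ID4 rose most. In NCI-H526 it rose by 0.43 ± 0.10 (1.35-fold, adjusted p = 0.000638, and 0.0628 in that line's own arrays alone), with 552A signals from 6.99 to 7.79 (median 7.14) and overlapping DMSO signals from 6.48 to 7.20 (median 6.90). In H1417 the 552A arrays (10.28 and 10.20) lay above the DMSO arrays (9.78 and 9.74), but the change of 0.48 ± 0.17 was not called (adjusted p = 0.0895). NCI-H146 gave 0.29 ± 0.10 (adjusted p = 0.102), and the other 5 lines gave -0.18 to 0.12. Vehicle levels were highest in H69 (11.22 ± 0.03), between 9.51 and 9.76 and overlapping in H1417, COLO668, NCI-H146 and SHP-77, 8.42 ± 0.10 in NCI-H510, and lowest and overlapping in H2171 (7.22 ± 0.16), NCI-H526 (6.85 ± 0.28) and NCI-H446 (6.52 ± 0.12).

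The ligand gene BMP4 rose by small amounts in 2 lines. In COLO668 its signals were 7.88 and 8.0 with 552A at day 2, against 7.84 and 7.78 with DMSO. They were 8.20 and 8.18 with 552A at day 4, against 7.88 and 7.82 with DMSO, and 8.06 and 8.17 with 552A at day 7, against 7.80 and 7.75 with DMSO. The arms did not overlap, and the change was 0.27 ± 0.07 (1.21-fold, adjusted p = 0.00219). In NCI-H446, the line with the highest vehicle level (8.89 ± 0.17), the 552A signals ran from 8.92 to 9.61 (median 9.17) and the DMSO signals from 8.56 to 9.07 (median 8.90), for a change of 0.34 ± 0.06 (1.27-fold, adjusted p = 0.000227, and 0.155 in that line's own arrays alone). In H69, the line next in level (8.75 ± 0.01), BMP4 read 8.30 and 8.29 with 552A, against 8.74 and 8.76 with DMSO. That fall of 0.45 ± 0.12 (1.37-fold lower, adjusted p = 0.0121) lost its call when any of the 4 arrays was left out (adjusted p from 0.0915 to 0.117). The other 6 lines had vehicle means of 7.24 to 7.56 beside 7.81 ± 0.05 in COLO668, and changes from -0.05 to 0.09.

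BMP7, the second ligand, was called in no line over its days on any of its 4 probe sets. Its transcript was prominent in 1 line: on 209590_at NCI-H526 averaged 10.37 ± 0.09 with DMSO (SD, n = 6), H69 7.46 ± 0.01 (n = 2) and NCI-H146 6.93 ± 0.10 (n = 6), while the other 6 lines lay between 5.65 and 5.96, below the dim limit. In NCI-H526 the 552A signals ran from 10.20 to 10.58 (median 10.33) and the DMSO signals from 10.25 to 10.47 (median 10.37), and the change was -0.03 ± 0.08 (adjusted p = 0.876). Probe sets 209591_s_at and 211259_s_at also put NCI-H526 first, at 10.58 and 9.51, but they passed the filter on dim signals through that line alone. The lead 211260_at read 7.56 to 7.77 in every line with overlap between all neighbours.

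**Figure D2:**
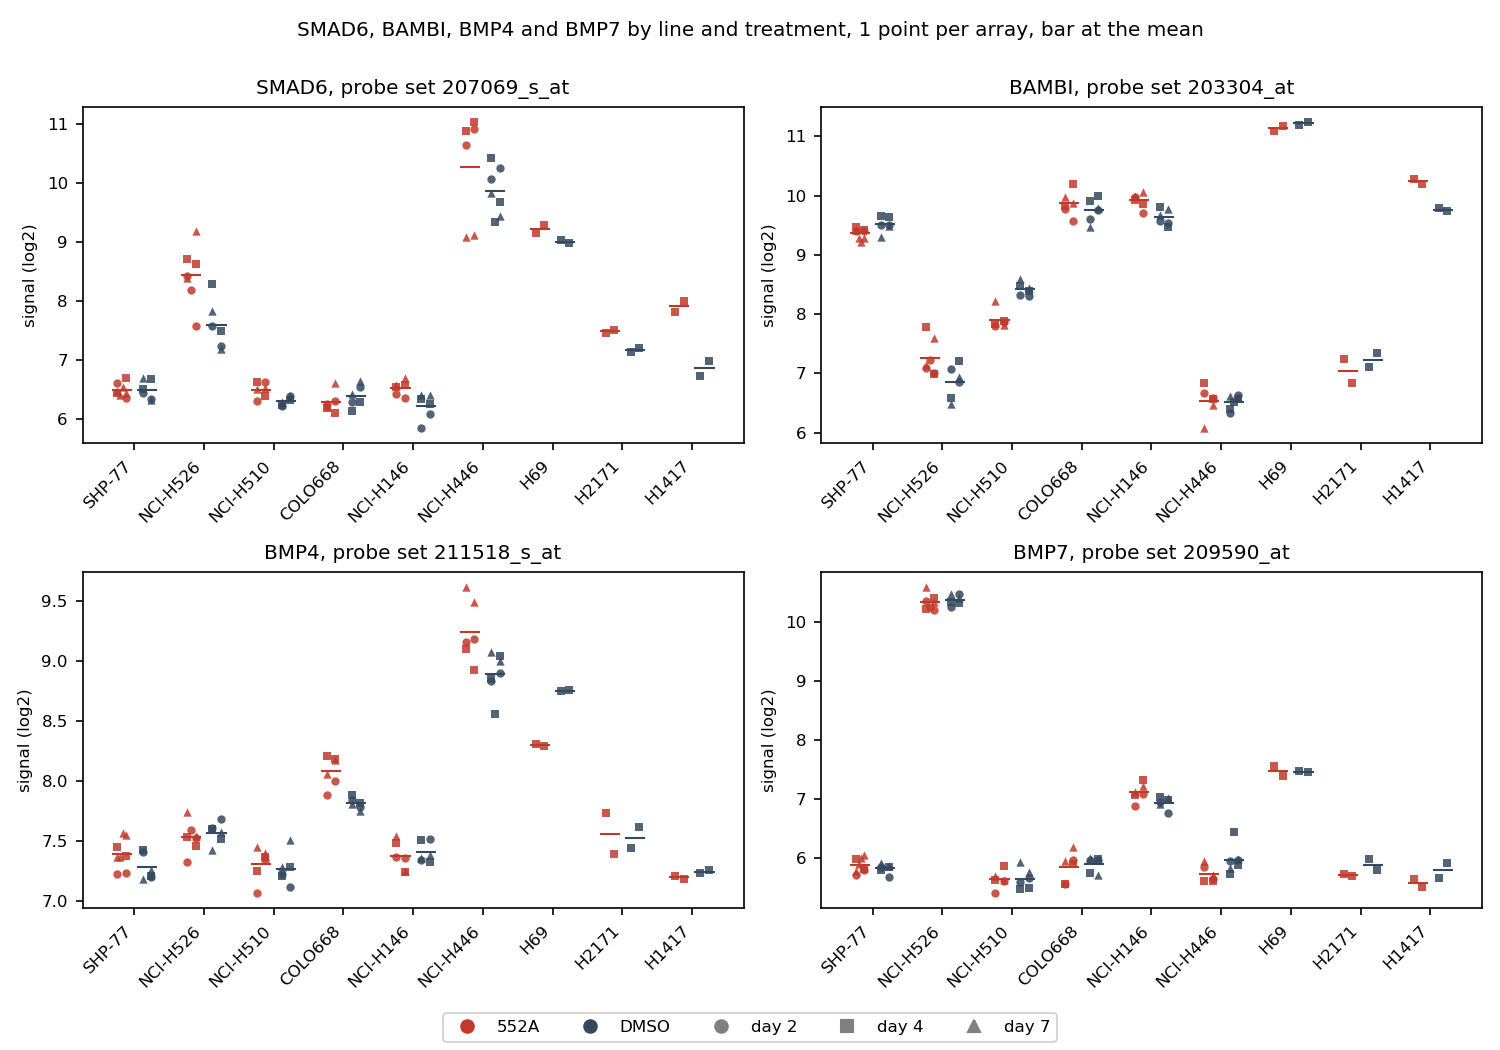
Signals (log2, vertical axis) of SMAD6, BAMBI, BMP4 and BMP7 on the probe set named above each panel (the brightest whose group means span over 4, otherwise the lead) in the 9 lines, with 552A in red left of DMSO in blue, 1 point per array, the shape giving the day and the bar the mean. BAMBI lies lower with 552A than with DMSO in NCI-H510 (median 7.85 against 8.42), and BMP7 is well above the dim limit of 6.09 in NCI-H526, H69 and NCI-H146.

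Tests of the difference between lines found the responses unequal for most members. The F test over the mean responses of the 6 time course lines called 11 of 17 member probe sets, against 31.8% of all probe sets, and included ID1, ID2, ID3, BAMBI, BMP4, all 5 ID4 probe sets and SMAD6 207069_s_at. The F test over the 9 day 4 responses called 10 of 17, against 12.8% of all, with ID2 no longer among them. Vehicle levels at day 4 differed over 9 lines for 16 of 17, against 96.7% of all, the exception being BMP7 211260_at (adjusted p = 0.801). With the line as the replicate, the change shared by all lines at day 4 was called for 0 of 17 member probe sets and for 0.00338% of all, which was 1 probe set, 226282_at of PTPN14, named after its values were seen. At an unadjusted p under 0.05, 3351 of 29598 probe sets passed. The mean change of ID1 over 9 lines was 0.42 ± 0.12 (adjusted p = 0.217), positive in 8 of 9 lines and ranging from -0.07 to 1.34. ID3 averaged 0.34 ± 0.10 (adjusted p = 0.253, positive in 7 of 9) and ID4 0.36 ± 0.16 (adjusted p = 0.41, positive in 6 of 9). ID2 averaged 0.10 ± 0.05 (adjusted p = 0.517), and the lead probe sets of SMAD6, BAMBI, BMP4 and BMP7 averaged 0.13, 0.05, 0.01 and -0.03. The other tested SMAD6 probe set, 207069_s_at, averaged 0.43 ± 0.13 (adjusted p = 0.225, positive in 7 of 9 lines).

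By line and day, 50 of 357 pairs of member probe set and line-day were called (14%), of which 46 rose and 4 fell, against 4.48% of all such pairs in either direction. The 5 ID4 probe sets are counted separately here too. Of the falls, 1 was of ID1 in NCI-H446 at day 7, 1 of BMP4 in H69 and 2 of BMP7. BMP7 211259_s_at fell by 0.39 in COLO668 at day 7 (adjusted p = 0.0212), a call lost without 552A replicate 2 or either DMSO array of that day or without the 6 arrays (-0.27, adjusted p = 0.202). BMP7 209590_at fell by 0.41 in NCI-H446 at day 4 (adjusted p = 0.0325), where its 552A mean of 5.60 and DMSO mean of 6.01 were both below the dim limit, and the call was lost without either 552A array or DMSO replicate 2 of that day (-0.20 without the last). ID1 and ID4 were called in NCI-H510 on each of the 3 days, with ID1 at 1.18, 1.34 and 1.22 and ID4 at 1.23, 1.25 and 1.20. In COLO668 both were called at day 4 (0.82 and 1.00) and day 7 (1.56 and 1.70), and not at day 2 (0.57, adjusted p = 0.0964, and 0.66, adjusted p = 0.0574). The day 4 call of ID1 ended without DMSO replicate 1 of that day (0.69, adjusted p = 0.095). In NCI-H526 more members were called at day 7 than earlier, with ID1 at 0.56, ID2 at 0.46, ID3 at 0.74, ID4 at 1.09, BAMBI at 0.66 and SMAD6 207069_s_at at 1.27. Of these, ID4 and SMAD6 kept their day 7 calls without any 1 array, and ID1, ID2, ID3 and BAMBI did not (without 552A replicate 2 they were 0.36, 0.35, 0.53 and 0.43, and ID1, ID2 and ID3 were also lost without DMSO replicate 2, BAMBI without DMSO replicate 1).

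**Figure D3:**
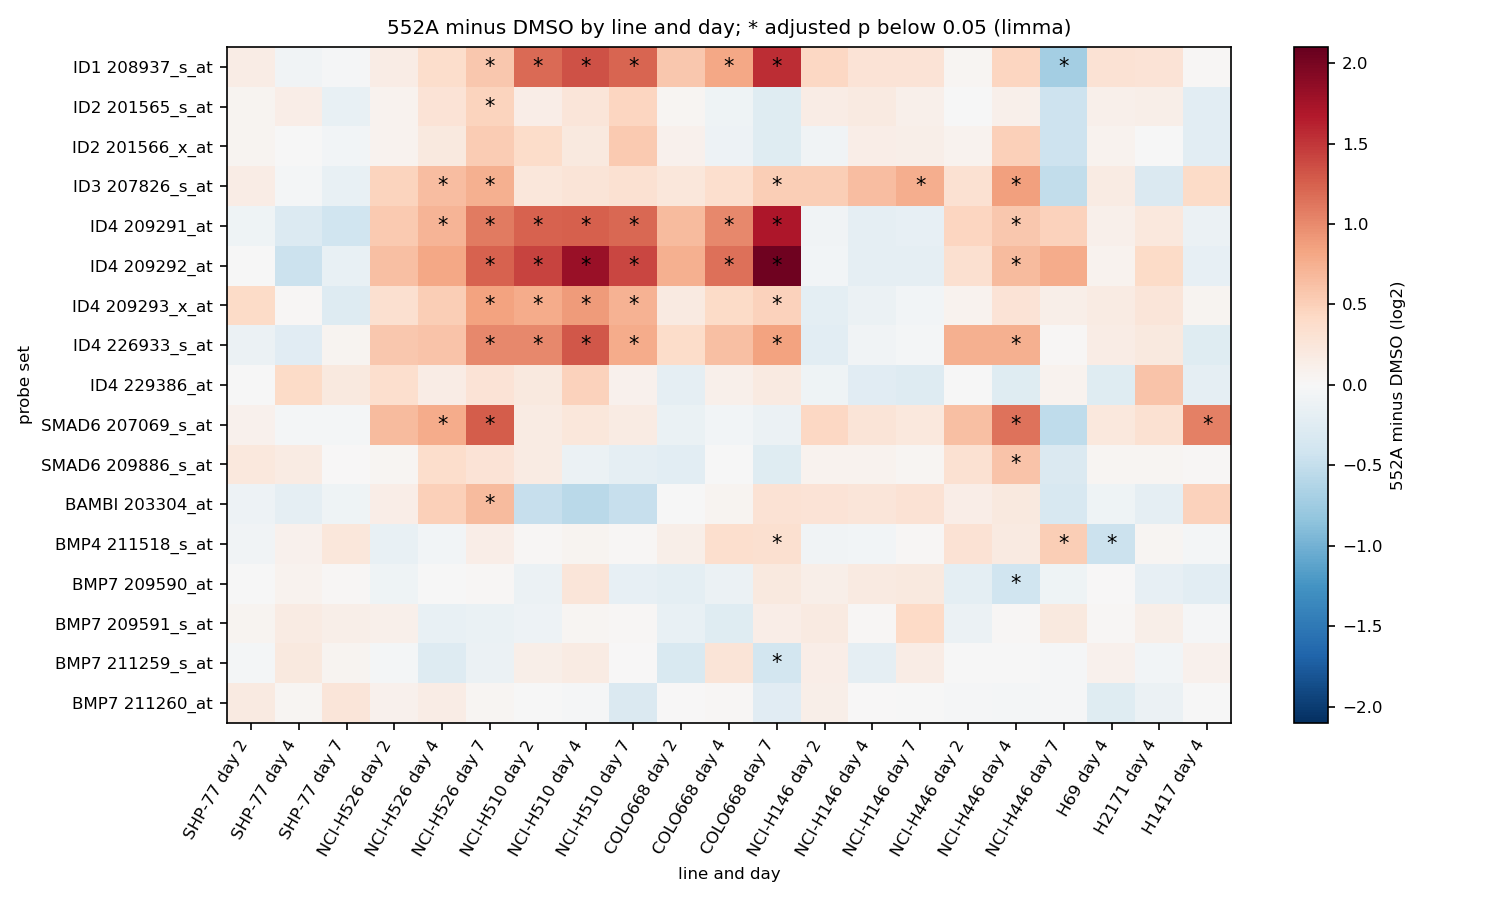
Change (552A minus DMSO, log2, colour scale) of each tested member probe set (rows) in each line and day (columns), with a star where the adjusted p lay below 0.05. The rises of ID1 and ID4 stand out in NCI-H510 on all 3 days and in COLO668 at days 4 and 7, where ID1 reached 1.56 and ID4 209292_at reached 2.04.

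In NCI-H446 the sign of the difference varied with the day. At day 4, SMAD6 207069_s_at read 10.88 and 11.03 with 552A, against 10.43, 9.33 and 9.67 with DMSO, a change of 1.14. At day 7 it read 9.08 and 9.11 with 552A, against 9.83 and 9.44 with DMSO, so the arms had changed places, although the day 7 difference was not called. ID3 read 12.19 and 12.51 with 552A at day 4, against 12.11, 10.84 and 11.50 with DMSO (0.86, adjusted p = 0.000922), and 11.46 and 11.28 with 552A at day 7, against 11.96 and 11.81 with DMSO (-0.51, adjusted p = 0.206). ID1 fell at day 7, with 12.28 and 12.19 with 552A, against 12.96 and 12.95 with DMSO (-0.72, adjusted p = 0.0123), while its day 4 change was 0.46 (adjusted p = 0.0505). The low DMSO value at day 4 came from replicate 2, the array with the lowest interquartile range. Without it the day 4 change of ID1 was 0.20 (adjusted p = 0.635), that of ID3 was 0.54 (adjusted p = 0.0569) and that of ID4 was 0.35 (adjusted p = 0.398, against 0.57 with it), and without the 6 arrays that of SMAD6 207069_s_at was 0.90 (adjusted p = 0.00988). The ID3 call also ended without 552A day 4 replicate 2 (0.71, adjusted p = 0.0675), the ID4 call without either 552A array of day 4, and the day 7 fall of ID1 without any 1 of its 4 arrays (adjusted p from 0.0731 to 0.178). The change of the response from day 2 to day 7 was -0.77 ± 0.25 for ID1 (adjusted p = 0.289) and -0.84 ± 0.27 for ID3 (adjusted p = 0.293), and neither was called. BMP4 rose by 0.52 at day 7 in the same line (adjusted p = 0.00453), but not without 552A replicate 1 or DMSO replicate 2 of that day (0.46 and 0.48). In DMSO alone ID4 rose by 0.83 ± 0.19 between day 2 and day 7 in NCI-H446 (adjusted p = 0.0402), a call lost without any 1 of its 4 arrays, and 2 of 102 such vehicle changes of member probe sets were called, against 2.05% of all.

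The response itself differed between days for 3 of 102 pairs of member probe set and line, against 0.601% of all, and all 3 were in COLO668. Day 7 exceeded day 2 by 0.99 ± 0.25 for ID1 (adjusted p = 0.0166), by 1.04 ± 0.27 for ID4 209291_at (adjusted p = 0.0209) and by 1.30 ± 0.37 for ID4 209292_at (adjusted p = 0.0357). Without the 6 arrays, which include 1 array of each arm of COLO668 at day 7, the differences were 0.77, 0.91 and 1.23 and stayed called (adjusted p = 0.0379, 0.0229 and 0.0373). With single arrays left out each of the 3 lost its call. That of ID1 ended without 552A day 2 replicate 2, DMSO day 2 replicate 2 or DMSO day 7 replicate 1, and that of ID4 209291_at without 552A day 2 replicate 1, 552A day 7 replicate 1, DMSO day 2 replicate 2 or DMSO day 7 replicate 1. Without DMSO day 7 replicate 1, an array of high ACTB ratio, the values were 0.72 for ID1 (adjusted p = 0.0695) and 0.69 for ID4 209291_at (adjusted p = 0.101). Probe set 209292_at lost its call without any of the same 4 arrays or without 552A day 2 replicate 2. In NCI-H526 the differences were 0.41 for ID1 and 0.54 for ID4 and were not called.

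**Figure D4:**
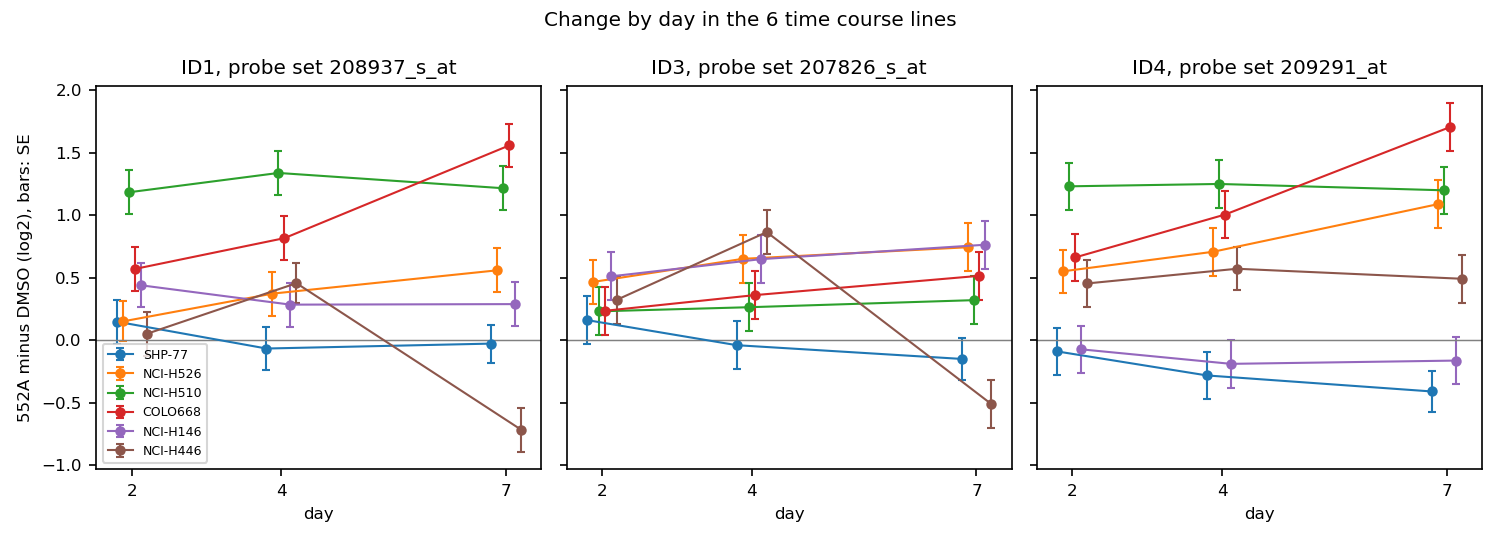
Change (552A minus DMSO, log2, with SE bars) of ID1, ID3 and ID4 on their lead probe sets at days 2, 4 and 7 in the 6 time course lines, 1 colour per line. COLO668 climbs to 1.56 for ID1 and 1.70 for ID4 at day 7, NCI-H510 stays near 1.2 for both, and NCI-H446 lies below 0 for ID1 and ID3 at day 7.

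Other genes of the pathway were counted on lead probe sets over 9 lines. Rises were above the 4.86% of all pairs of probe set and line in each of 6 lists. Falls were near the 3.41% of all pairs or below it in each list but the secreted antagonists. The shares of all pairs cover every tested probe set and not lead probe sets alone, so the bases differ. By list the shares were 12.7% rising and 3.17% falling for ligands, 19% and 3.17% for receptors, 9.52% and 3.17% for SMADs with their ligases, 13.9% and 7.41% for antagonists, 18.1% and 4.17% for other targets, and 12.2% and 2.22% for E proteins and bHLH factors. Among 7 of 12 further BMP ligands that passed the filter, 8 of 63 pairs of gene and line rose and 2 fell (median change of all pairs 0.00). BMP8A rose most, by 1.03 ± 0.07 in NCI-H510 (adjusted p = 2.01e-18), and BMP2 fell by 0.57 ± 0.12 in SHP-77 (adjusted p = 0.00141). Among 7 of 11 receptors and coreceptors, 12 of 63 pairs rose and 2 fell (median 0.06). The largest called rise was of the coreceptor gene RGMA, by 1.03 ± 0.25 in H1417 (adjusted p = 0.00364). The largest called fall was of the coreceptor gene RGMB, by 0.22 ± 0.06 in NCI-H446 (adjusted p = 0.0217). RGMB rose in 4 other lines, by 0.96 in NCI-H526 and by 0.29 each in NCI-H510, COLO668 and NCI-H146. These rises stayed called with any 1 array left out. The RGMA call ended without 552A replicate 2 or DMSO replicate 1 of H1417 (0.97 and 0.87). The call of the RGMB fall in NCI-H446 ended without 1 of 5 arrays. Those were 552A day 2 replicate 2, day 4 replicate 2 and day 7 replicate 1, and DMSO day 2 replicate 2 and day 7 replicate 2. Among 7 SMADs and SMURF ubiquitin ligases, 6 of 63 pairs rose and 2 fell (median 0.10). Both extremes were of SMAD9, which carries the BMP signal and which rose by 1.15 ± 0.08 in NCI-H510 (adjusted p = 8.94e-17) and fell by 0.33 ± 0.08 in NCI-H146 (adjusted p = 0.00514). The fall was not called without 552A day 4 replicate 2 (-0.27, adjusted p = 0.064).

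Secreted antagonists, which bind BMPs or related ligands and keep them from the receptors, gave the most falls of these lists, 8 of 108 pairs, beside 15 rises, with 12 of 17 genes past the filter (median 0.05). NOG, which encodes noggin, rose most, by 1.64 ± 0.31 in H2171 (adjusted p = 0.000615), where its DMSO mean of 5.55 was dim so that the change may be a lower limit. GREM1, which encodes gremlin, fell by 1.58 ± 0.10 in NCI-H526 (adjusted p = 5.24e-19). Picked after their values were seen, FST, which encodes the activin and BMP antagonist follistatin, fell by 1.37 ± 0.06 in NCI-H510, 0.64 ± 0.06 in SHP-77 and 0.55 ± 0.06 in COLO668, and rose by 0.79 ± 0.06 in NCI-H146. Among 8 of 10 other BMP target genes, 13 of 72 pairs rose and 3 fell (median 0.03). HEY1, a Hes-related repressor induced by BMP and Notch signals, rose in 6 of 9 lines, by 0.80 ± 0.08 in NCI-H526, 0.61 ± 0.14 in H2171, 0.56 ± 0.14 in H1417, 0.33 ± 0.08 in COLO668 and in NCI-H446, and 0.25 ± 0.08 in NCI-H510. Its shared change at day 4 of 0.40 was not called (adjusted p = 0.0935). ATOH8, a bHLH gene, rose by 1.01 ± 0.09 in COLO668 (adjusted p = 3.59e-13), and MSX1, a homeobox gene, fell by 0.49 ± 0.10 in H69 (adjusted p = 0.00163).

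Among E proteins and bHLH factors that ID proteins bind or oppose, 10 of 15 genes passed the filter, 11 of 90 pairs rose and 2 fell (median -0.01). The medians over all probe sets tested lay between -0.02 and 0.03 in the 9 lines. HES1, a bHLH repressor downstream of Notch, rose in 5 of 9 lines, by 1.90 ± 0.21 in H1417 (adjusted p = 7.15e-10), 1.00 ± 0.12 in COLO668, 0.96 ± 0.12 in NCI-H510, 0.82 ± 0.21 in H2171 and 0.33 ± 0.12 in NCI-H526, with a shared change of 0.58 at day 4 that was not called (adjusted p = 0.27). In H2171 the HES1 call ended without any 1 of the 4 arrays, and in NCI-H526 without 1 of 9 of its arrays. Those were 552A day 2 replicates 1 and 3, both of day 4 and day 7 replicate 2, and DMSO day 2 replicate 2, day 4 replicate 2 and both of day 7. The HEY1 calls ended in NCI-H510 without 1 of 8 arrays (552A day 2 replicate 2, both of day 4 and day 7 replicate 1, and DMSO day 2 replicate 1, both of day 4 and day 7 replicate 2). They also ended in H2171 without 552A replicate 1 or 2 or DMSO replicate 2, in H1417 without 552A replicate 1, and in NCI-H446 without 552A day 2 replicate 2. HES6, which opposes HES1, fell by 0.29 ± 0.06 in NCI-H510 (adjusted p = 0.00035). ID1 was not called in H1417, the line with the largest HES1 change.

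**Figure D5:**
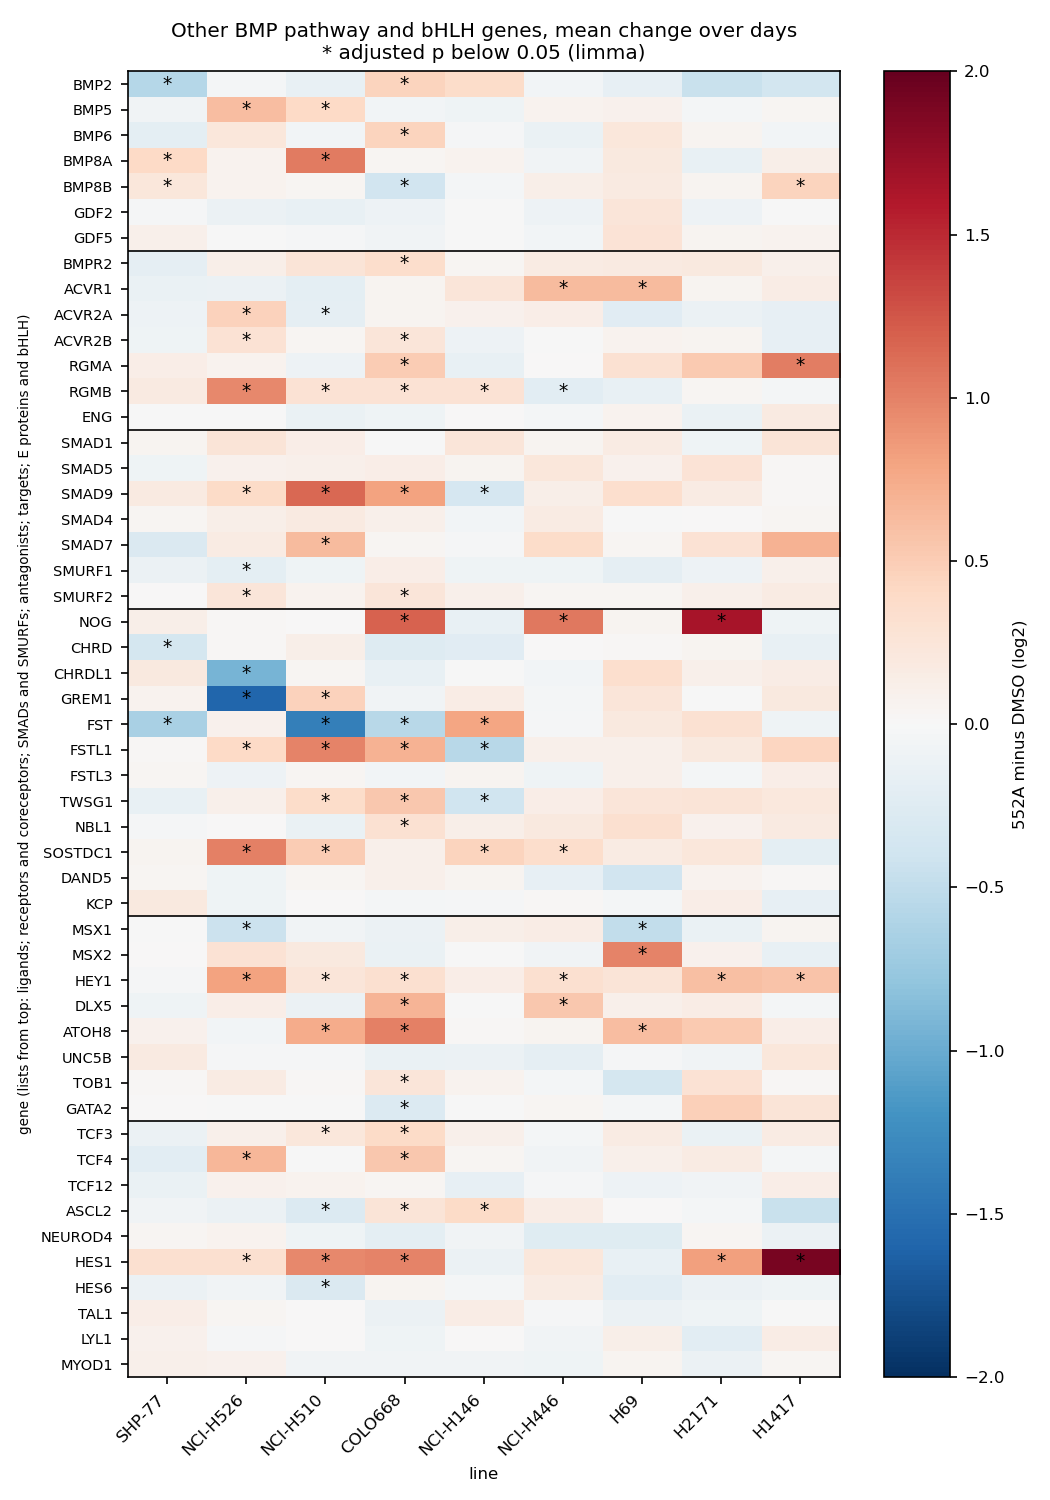
Mean change over days (552A minus DMSO, log2, colour scale) of the other BMP pathway and bHLH genes past the filter (rows, grouped by list from ligands at the top to E proteins and bHLH factors) in the 9 lines (columns), with a star where the adjusted p lay below 0.05. HEY1 carries 6 stars and HES1 carries 5, all rises, and the strongest fall is GREM1 in NCI-H526 at -1.58.

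Over the 21 changes of line and day, which share arrays within a line, ID1 and ID4 moved together (Pearson's r = 0.76, Spearman's rho = 0.81) and ID1 and ID3 less so (0.39 and 0.39). ID3 and BAMBI had r = 0.65 and rho = 0.79, and the lead probe set of SMAD6 had r = 0.46 with ID3 and -0.18 with ID1. Of all other genes past the filter, those with changes most like ID1 were STX6 (r = 0.91), UBE2H (0.90) and CXCL6 (0.86). Those most like ID4 were SAMD13, NFIA and ZNF738 (each 0.87), those most like ID3 CHRNA5 (0.89), FAM32A and MTERF2 (each 0.86), and those most like ID2 BIRC5 (0.79), RHNO1 (0.78) and TMEM178B (0.75). For SMAD6 they were ELOVL3 and SRD5A1 (each 0.83) and UFC1 (0.81), for BAMBI EDIL3 and KCNC1 (each 0.83) and FRAS1 (0.81), for BMP4 DPP4 (0.80), CRB1 (0.78) and MRAP2 (0.77), and for BMP7 B4GALNT1 (0.80), KCNK16 (0.78) and SERPINA6 (0.75). They were picked as the highest r among the 15352 genes tested and are given as a description without a p-value. Those of BMP7 rest on its lead 211260_at, which was called in no line or day. That probe set did not set NCI-H526 apart as the other BMP7 probe sets did.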

How the data were processed

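Total RNA was labelled with biotin and hybridised to HG-U133 Plus 2.0 arrays, per the labels' protocols. The authors deposited log2 expression values per probe set, with background correction and scaling not given in the sources used here. Values were used as deposited, and GEO's platform annotation named the probe sets, 1 symbol for 41091 of 54675, several for 1801 and none for 11721, beside 62 controls. No symbol was updated, and 54 Entrez IDs had no match. The number of arrays, which have no read depth, limits the precision.

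A probe set was kept if at least 1 group mean exceeded the median of all values, 7.41. This left 29598 probe sets of 15352 genes. limma 3.58.1 in R 4.3.3 fitted a mean for each of the 42 groups, with 46 residual and 5.6 prior degrees of freedom, so the spread is pooled over lines. Tests were two-sided moderated tests with Benjamini-Hochberg adjustment over all probe sets, called below 0.05. The shared response used 1 ratio per line. Fits were tested on simulated data. Summaries and plots were made with matplotlib 3.10.9, numpy 2.4.6 and pandas 2.3.3 under Python 3.11.15. Replicate arrays of a group had the same value at 4 or fewer of the 29598 probe sets. The dim limit, 6.09, was the median lower quartile of the arrays.

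Every member is described. List genes are named where called in at least 5 of 9 lines in 1 direction, or as the largest called rise or fall of their list. The 3 genes most like each member were taken by Pearson's r. The members and lists were chosen with earlier results of these data known, so no count of them is independent support. List genes without a single-gene probe set were not analysed here, and a planned comparison of protein sequences was not run. The alternatives are quantile normalization, other treatments of dim or multiple probe sets, an intensity trend and a covariate. Others are the replicate block, a line's own arrays, single days, and lines or arrays left out.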

Additional observations from a re-analysis of the deposited data

Results flagged for a closer look

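The response to 552A differed between lines by its own F test for most members, which puts them among the results a reader may want to look at again. Over the mean responses of the 6 time course lines the adjusted p was 9.06e-12 for ID1, 0.00743 for ID2, 0.0032 for ID3, 3.38e-06 for BAMBI, 0.00186 for BMP4 and 0.000153 for SMAD6 207069_s_at. For the ID4 probe sets it was 3.21e-13 (209291_at), 7.59e-11 (209292_at), 6.05e-07 (209293_x_at), 2.34e-07 (226933_s_at) and 0.0272 (229386_at). Over the 9 day 4 responses it was 0.000531 for ID1, 0.0167 for ID3, 0.0111 for BAMBI, 0.018 for BMP4 and 0.00917 for SMAD6 207069_s_at. For ID4 it was 1.48e-05 (209291_at), 2.41e-05 (209292_at), 0.0317 (209293_x_at), 0.000555 (226933_s_at) and 0.015 (229386_at).

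In COLO668 the response at day 7 exceeded that at day 2 by 0.99 for ID1, 1.04 for ID4 209291_at and 1.30 for ID4 209292_at on the log2 scale. A single far value was looked for only in groups of line, treatment and day with 4 to 10 arrays. Only 1 group had as many as 4, the treated arrays of SHP-77 at day 7. The 19 checks were therefore of the 19 member probe sets on the same 4 arrays, and 0 held such a value. Replicates 1 and 2 were alike, as were 3 and 4 (SD of the difference over probe sets 0.15 in each). Across them that SD was 0.31 to 0.33, and a check for 1 far value can hardly flag any in such a split. The other groups, with every DMSO group among them, had too few arrays and were not checked.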

How the results depend on the processing

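Leaving out single arrays aside, 302 of 332 recomputed changes of called members by line kept their direction and their side of the threshold, 30 kept the direction but missed the threshold, and none turned round. With single arrays left out, 360 of 394 did so and 34 missed the threshold. Of the member counts, 37 of 40 stayed within 1.5 times. With day 4 alone the lead probe sets gave 9 rises and 1 fall and all member probe sets 18 rises. The shared change at day 4 became called for ID1 (0.42, adjusted p = 1.67e-07), ID3 (0.34, adjusted p = 9.81e-05) and ID4 (0.36, adjusted p = 2.14e-05) when arrays rather than lines set the spread. That fit takes arrays of a line as separate units. Its p-values bear on the mean of these 9 lines alone and are no support for a response shared by lines. The shared change of BMP4 turned to -0.0013 under quantile normalization and to -0.0014 without the 6 arrays. With 1 line or 1 array left out the shared change ranged from -0.0285 to 0.0714 for BMP4. It ranged from -0.0044 to 0.1285 for BAMBI and from -0.0477 to 0.0028 for BMP7. The values -0.0285, -0.0044 and 0.0028 came without the whole lines COLO668, NCI-H526 and H69, in that order. With 1 array left out, falls numbered 1 to 2 on lead probe sets and 1 to 3 on all. Rises numbered 15 to 20 and 29 to 37.

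Pathway list counts moved by over 1.5 times as follows. Falls of E proteins and bHLH factors were 4 under quantile normalization, 5 under a stricter filter, 5 with 1 lead probe set per gene, 6 without the 6 arrays, 4 with the replicate block and 0 at day 4 alone. With all probe sets of a gene averaged, rises were 5 for ligands, 12 for SMADs with their ligases and 6 for E proteins and bHLH factors, and falls were 1 for receptors, 1 for SMADs and 5 for other targets. SMAD rises were 11 without the 6 arrays and 11 with a line's own arrays, and receptor falls 4 without the 6 arrays and 1 with the block. At day 4 alone rises were 2 for ligands, 6 for receptors, 5 for antagonists and 7 for E proteins and bHLH factors, and falls 1 for ligands, 0 for receptors and 0 for SMADs. With 1 array left out, falls ranged from 1 to 3 for receptors, from 1 to 3 for SMADs and from 1 to 6 for E proteins and bHLH factors. Where a cause is not plain from fewer genes, days or arrays, the cause was not tested.

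Whether same-numbered arrays of 552A and DMSO pair was not settled. Over 42 deviations r ran from -0.61 to 0.63, with a median of 0.11, 21 above 0.1 and 7 below -0.1. Where both arms had 2 arrays, the 2 replicates give the same r by construction. Most of the 42 values are therefore repeats and not independent. With the replicate number as a block the lead probe sets gave 15 rises and 2 falls and all member probe sets 29 and 2. The ID1 change in NCI-H146 (adjusted p = 0.0865) and that of ID4 229386_at in NCI-H526 (adjusted p = 0.089) missed the threshold under the block. Groups of mostly 2 arrays limit the precision, and vehicle signals below 6.09 limit what probe set 209590_at of BMP7 could show in 6 lines.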
